A study of Arabidopsis thaliana with 24 samples.

Results

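A set of 4 Arabidopsis thaliana genes with large differences between salicylic acid (SA) and water at the later of a pair of treatment times is described here: AT4G01700, AT2G39210, AT5G52760 and AT1G13470. They are 4 of the 13350 genes with a named probe set, and each has 1 probe set (255595_at, 266993_at, 248322_at and 259385_at) among the 22746 tested. They were chosen by the size of their log2 difference between SA and water at ZT36 and 3 h in these same arrays, so values from that comparison are given as a description and are not tested. Transcripts were measured on 24 Affymetrix arrays of RNA from true leaves of wild-type, soil-grown plants 23 d old, raised under a 12 h day length and then held in constant light for 24 h. Treatment was with water or with SA at 1 mM, given either at ZT24 or at ZT36, where ZT counts hours on the zeitgeber clock, and the light stayed on. Leaves carry the labels 0 h or 3 h after treatment, which makes 8 groups of 3 arrays described as biological replicates, numbered here in the order of deposit. The question was how far the transcript response to SA differs with the hour of treatment.

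SA is a phenolic hormone that plants make on infection by pathogens that feed on living tissue. Its perception involves the NPR proteins, which act with TGA factors at the promoters of defence genes, and its own level is kept in check by glycosylation and hydroxylation. The circadian clock is known to act on plant immunity, so that the same trigger can give unlike responses at unlike times of day. AT4G01700 belongs to the chitinase family, enzymes that cut chitin, a polymer of fungal cell walls. AT2G39210 encodes a membrane transporter of the major facilitator superfamily with a nodulin-like domain. AT5G52760 encodes a small protein with a heavy-metal-associated domain, from a cluster of such genes on chromosome 5. AT1G13470 encodes a protein with a domain of unknown function, DUF1262.

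Values are log2 expression relative to each probe set's own median over the 24 arrays, so 0 is the middle array and no absolute level is given. Levels therefore cannot be compared between genes, and signal over background is not known. In leaf RNA, a change in the share of a cell type and a change of transcript per cell cannot be told apart. None of the 5 mesophyll, 2 phloem and 1 epidermis markers looked for had a named probe set, so the tissue label could not be checked on them. The guard cell marker FMA (AT3G24140), the 1 measured of 3, was lower with SA than with water at ZT24 and 3 h by -0.44, and the root marker PYK10 (AT3G09260), the 1 measured of 2, differed by -0.02 and did not pass the test. At ZT36 and 3 h the guard cell marker differed by -0.48 and the root marker by 0.47 between SA and water, without a test. The part of these markers in the results was not tested. Arrays of one group correlated at r of 0.618 to 0.939 across probe sets, and 3 arrays per group limit the precision. The SA 0 h arrays already differed from the water 0 h arrays, at 16.2% of probe sets at ZT24 and 29.0% at ZT36 (limma, Benjamini-Hochberg adjusted p under 0.05). For that reason each SA value at 3 h is set against both water 3 h and SA 0 h.

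AT4G01700, the chitinase family gene, was low in water and high 3 h after SA at both times of treatment. In water at ZT24 its 3 arrays read -0.53, -0.00 and 0.11 at 0 h, and -0.90, -0.73 and -0.50 at 3 h. In SA at ZT24 they read 0.00, 0.27 and 0.92 at 0 h, and 3.06, 2.69 and 2.46 at 3 h. All SA 3 h arrays lay above every other array of that time of treatment. At ZT36 the water arrays read -1.32, -1.42 and -2.01 at 0 h, and -2.15, -1.73 and -2.12 at 3 h. The SA arrays read 0.69, 0.10 and -0.21 at 0 h, and 3.04, 3.16 and 3.27 at 3 h. Here the 3 SA 0 h arrays also lay above all 6 water arrays, which themselves lay below every water array of ZT24. Ordered by mean, the groups ran from SA 3 h at ZT36 (3.15 ± 0.11, SD, n = 3) and at ZT24 (2.74 ± 0.31), which overlapped, down to water 3 h at ZT36 (-2.0 ± 0.24). The 4 groups in the middle, both SA 0 h groups and both water groups of ZT24, each overlapped with the next in order, while gaps of 1.53 above them and 0.42 below them held no array. The lowest pair, both water groups of ZT36, overlapped with each other.

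AT2G39210, the transporter gene, followed a closely similar course. Water at ZT24 gave -0.48, -0.03 and 0.07 at 0 h, and -0.61, -0.42 and 0.03 at 3 h. SA at ZT24 gave 0.16, 0.29 and 0.60 at 0 h, and 2.32, 2.29 and 2.47 at 3 h. The SA 3 h arrays were close together and far above the rest. Water at ZT36 gave -1.59, -1.99 and -0.88 at 0 h, and -2.12, -1.81 and -2.28 at 3 h. SA at ZT36 gave 0.29, -0.46 and -0.70 at 0 h, and 2.92, 3.02 and 2.85 at 3 h. Of the 4 genes, AT2G39210 alone had SA 3 h arrays that did not overlap between the times, with means of 2.93 ± 0.08 (SD, n = 3) at ZT36 and 2.36 ± 0.09 at ZT24. Water 3 h at ZT36 was again lowest, at -2.07 ± 0.24, and overlapped with water 0 h at ZT36.

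AT5G52760, the heavy-metal-associated domain gene, differed from these by a wide spread among its water arrays. Water at ZT24 read -0.90, 2.24 and 2.02 at 0 h, and -1.48, 2.18 and 0.03 at 3 h. SA at ZT24 read -0.83, -0.21 and -0.24 at 0 h, and 4.04, 4.09 and 4.55 at 3 h. Replicate 1 was the lowest array in both water groups of ZT24, and replicate 2 the highest. Water at ZT36 read -0.28, 1.77 and -0.35 at 0 h, and -1.79, -1.20 and -0.83 at 3 h. SA at ZT36 read -0.03, 0.04 and -0.97 at 0 h, and 4.14, 4.06 and 4.23 at 3 h. At both times the SA 3 h arrays lay above every other array, and they overlapped with each other (means of 4.22 ± 0.28 and 4.14 ± 0.09, SD, n = 3). The SD of the water groups ran from 0.48 at ZT36 and 3 h to 1.84 at ZT24 and 3 h, and the 5 groups between the SA 3 h groups and the lowest, water 3 h at ZT36, each overlapped with the next in order.

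AT1G13470, the DUF1262 gene, lay between these patterns. Water at ZT24 read -0.54, 0.84 and 0.57 at 0 h, and -0.80, 0.97 and 0.42 at 3 h. SA at ZT24 read -0.98, 0.26 and 0.02 at 0 h, and 4.15, 3.90 and 4.16 at 3 h. Replicate 1 was the lowest array in each of the 3 groups that had not reached 3 h of SA. Water at ZT36 read -0.76, -0.02 and -0.83 at 0 h, and -1.10, -0.97 and -1.15 at 3 h. SA at ZT36 read -0.49, -0.13 and -0.96 at 0 h, and 3.65, 4.32 and 4.32 at 3 h. The SA 3 h groups overlapped (4.10 ± 0.39 at ZT36 and 4.07 ± 0.14 at ZT24, SD, n = 3), and the lowest group, water 3 h at ZT36 (-1.07 ± 0.09), lay 0.14 below the nearest array of water 0 h at ZT36.

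**Figure D1:**
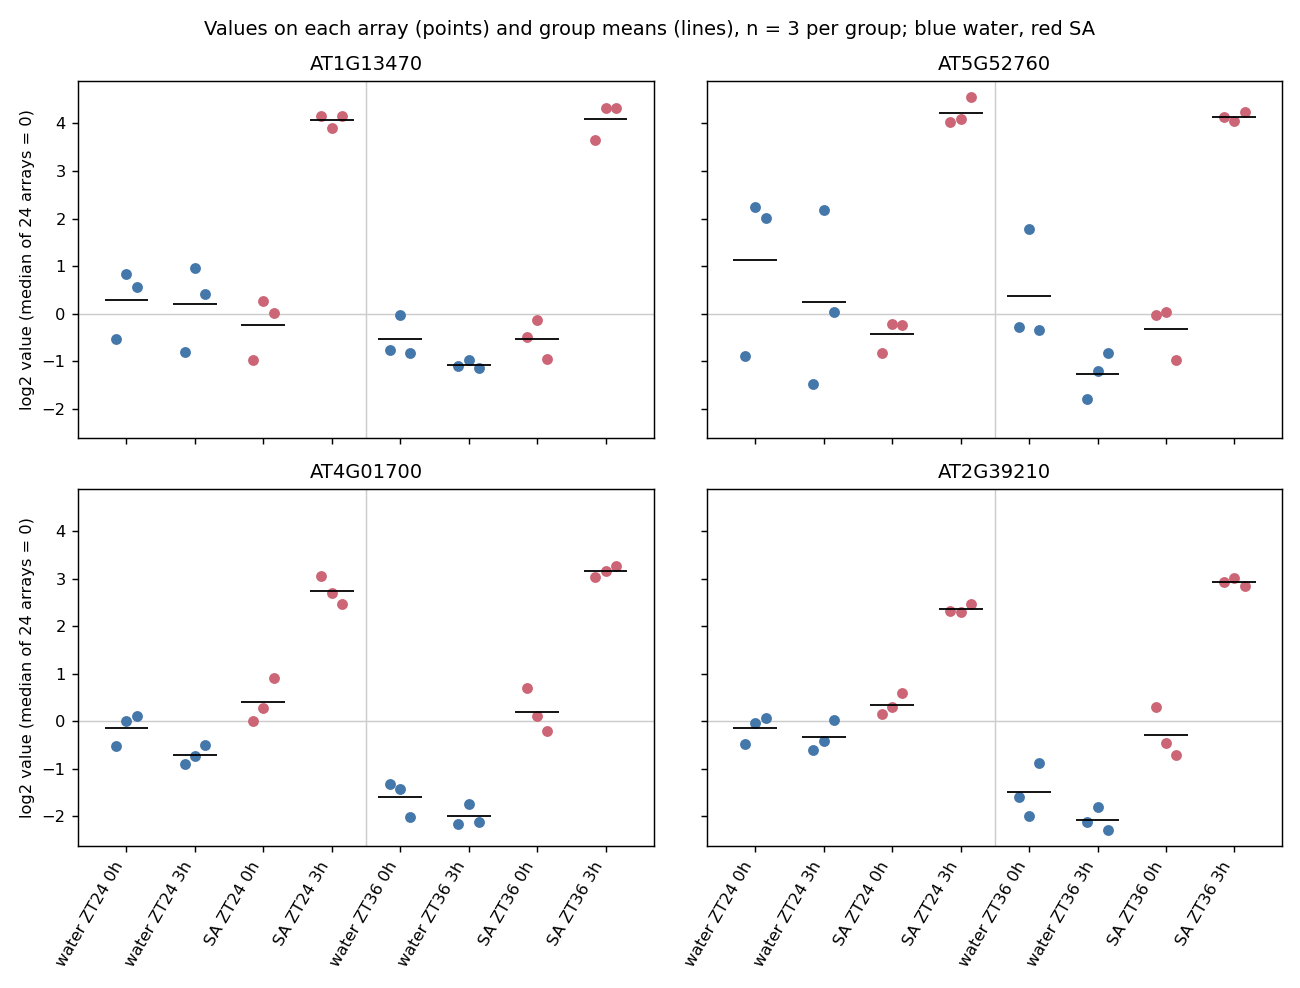
Log2 values (vertical axis, median of the 24 arrays at 0) of the 4 genes on each array (points) with group means (lines) in the 8 groups along the horizontal axis, water in blue and SA in red, 3 arrays per group. The SA 3 h arrays are the highest of all in every panel, the water arrays of AT4G01700 and AT2G39210 are lower at ZT36 than at ZT24, and those of AT5G52760 are widely spread.

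The spread within groups set the precision of every comparison below. Over the 8 groups the residual SD was 0.33 for AT4G01700, 0.34 for AT2G39210, 0.54 for AT1G13470 and 1.04 for AT5G52760, against a median of 0.13 over all probe sets. That of AT5G52760 exceeded 99.9% of probe sets, that of AT1G13470 exceeded 99.1%, and those of AT4G01700 and AT2G39210 exceeded 96.2% and 96.3%. All 4 genes thus varied more between arrays of one group than most probe sets did. The SEs and p-values below use 1 spread per gene, shared by all 8 groups. For AT5G52760 the group SDs ran from 0.09 (SA 3 h at ZT36) to 1.84 (water 3 h at ZT24). For AT1G13470 they ran from 0.09 (water 3 h at ZT36) to 0.91 (water 3 h at ZT24). The shared SE of each of these genes is thus too small for comparisons with water 3 h at ZT24. It is too large between the SA 3 h groups, and the p-values of both genes carry the same limit.

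The comparison that chose the genes, SA against water at ZT36 and 3 h, gave 5.42 ± 0.76 (log2, SE from limma, n = 3 per group) for AT5G52760, 5.17 ± 0.40 for AT1G13470, 5.15 ± 0.25 for AT4G01700 and 5.00 ± 0.25 for AT2G39210. These are 42.8-fold, 36-fold, 35.6-fold and 32-fold, and places 10, 14, 15 and 18 from the highest of 22746 probe sets. The groups did not overlap for any of the 4, where SA lay above water without overlap at 22.8% of all probe sets. Against SA 0 h at ZT36 the order of the genes was different: AT1G13470 stood 4.62 higher, AT5G52760 4.47, AT2G39210 3.22 and AT4G01700 2.96, again with no overlap (19.4% of all probe sets). This comparison shares its SA 3 h arrays with the one that chose the genes and was not tested.

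At ZT24, in arrays that had no part in choosing the genes, all 4 rose with SA at 3 h. Against water 3 h, AT5G52760 rose by 3.98 ± 0.76 on the log2 scale (15.8-fold, limma adjusted p = 0.00023, n = 3 per group) and AT1G13470 by 3.87 ± 0.40 (14.6-fold, adjusted p = 9.6e-08). The chitinase family gene AT4G01700 rose by 3.44 ± 0.25 (10.9-fold, adjusted p = 7.6e-10) and the transporter gene AT2G39210 by 2.69 ± 0.25 (6.46-fold, adjusted p = 2.4e-08). All 3 SA arrays lay above all 3 water arrays for each gene, which held at 20.2% of all probe sets. Of all probe sets, 38.1% passed in this comparison and 17.7% were higher and 20.5% lower with SA, so passing the test was common. By size the 4 rises held places 39, 46, 77 and 167 from the highest. With quantile normalization of the deposited values the rises were 2.85, 2.64, 2.67 and 1.96 in the same order of genes, and each still passed. That step gives every array the same distribution of centred values. Array SDs over probe sets were 0.547 to 0.648 in SA 3 h, 0.367 to 0.553 in water and 0.286 to 0.359 in SA 0 h. The step therefore narrows the SA 3 h arrays and widens the SA 0 h arrays by construction, so shifts under it are partly built in. The wide water spread of AT5G52760 left its estimate open to single arrays: it was 3.12 without water ZT24 3h replicate 1 and 4.95 without water ZT24 3h replicate 2.

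Against SA 0 h at ZT24, where 31.7% of probe sets passed and 14.3% were higher and 17.4% lower at 3 h, the same 4 genes rose, with no overlap between the groups (16.4% of all probe sets). AT5G52760 rose by 4.65 ± 0.76 (adjusted p = 5.3e-05) and AT1G13470 by 4.30 ± 0.40 (adjusted p = 3.5e-08), somewhat more than against water. AT4G01700 rose by 2.34 ± 0.25 (adjusted p = 2.4e-07) and AT2G39210 by 2.01 ± 0.25 (adjusted p = 1.8e-06), somewhat less than against water. Quantile normalization moved these last values to 1.29 for AT4G01700 and 1.12 for AT2G39210, and both still passed. The arrays of SA 3 h are shared by these comparisons, so their agreement is not independent.

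**Figure D2:**
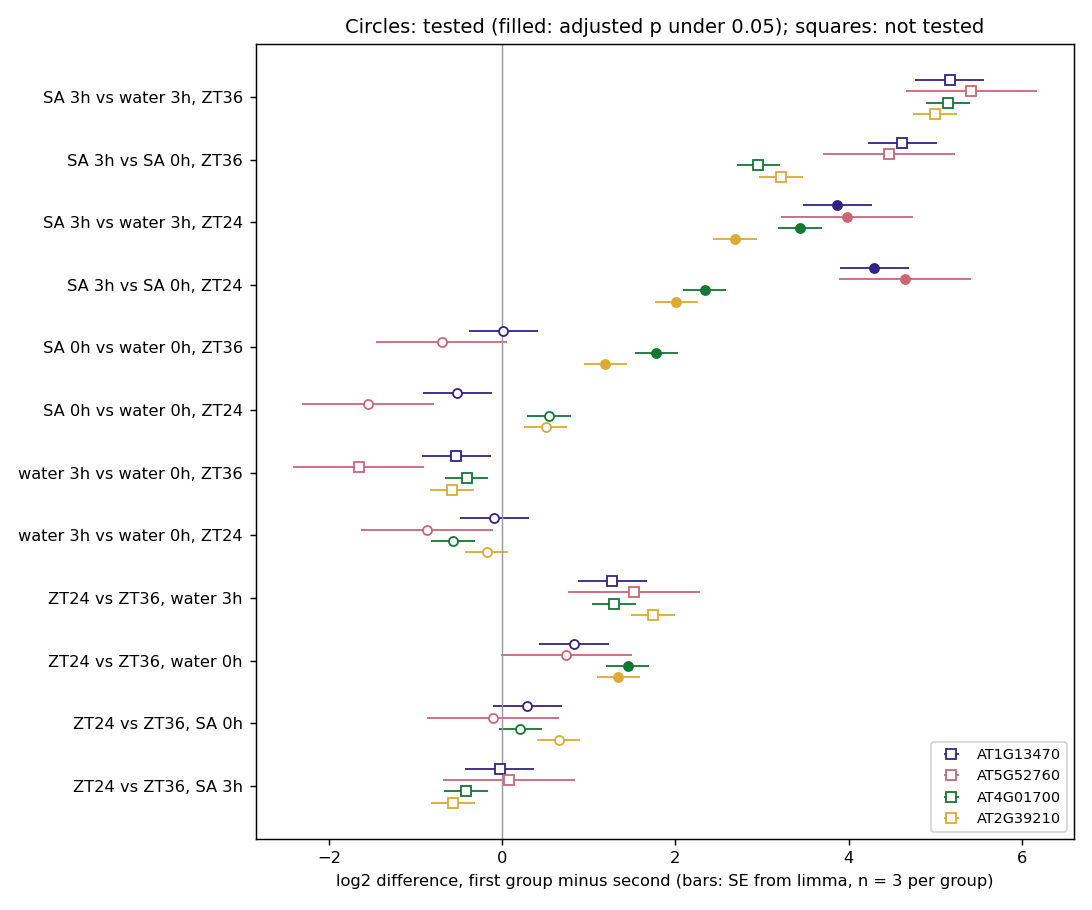
Log2 differences, first group minus second (horizontal axis, bars are SE from limma, 3 arrays per group), of the 4 genes (colours) in 12 comparisons, with circles for tested comparisons, filled where the adjusted p was under 0.05, and squares for those described without a test. All 8 values of SA 3 h at ZT24 are filled and lie between 2.01 and 4.65, and AT4G01700 and AT2G39210 alone are filled for SA 0 h against water 0 h at ZT36 and for ZT24 against ZT36 in water 0 h.

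At 0 h, SA and water differed for some of the genes. At ZT36 and 0 h, AT4G01700 was higher in SA than in water by 1.78 ± 0.25 (3.44-fold, limma adjusted p = 1.6e-05, n = 3 per group) and AT2G39210 by 1.19 ± 0.25 (2.29-fold, adjusted p = 0.00091), where 29.0% of probe sets passed and 15.1% were higher with SA. AT1G13470 differed by 0.01 ± 0.40 (adjusted p = 0.99, 95% interval -0.82 to 0.84) and AT5G52760 by -0.70 ± 0.76 (adjusted p = 0.57, -2.29 to 0.89), so that no difference was detectable for either at this spread. Whether the genes differed from each other here was not tested. At ZT24 and 0 h, none of the 4 passed, where 16.2% of probe sets did. The values were 0.54 ± 0.25 for AT4G01700 (adjusted p = 0.16), 0.50 ± 0.25 for AT2G39210 (adjusted p = 0.2), -0.52 ± 0.40 for AT1G13470 (adjusted p = 0.43) and -1.55 ± 0.76 for AT5G52760 (adjusted p = 0.19). Single settings did call some of them: AT4G01700 with array weights (0.68, adjusted p = 0.035) and AT5G52760 without water ZT24 0h replicate 1 (-2.56, adjusted p = 0.019).

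How far this SA-to-water difference at 0 h itself changed with time, ZT24 minus ZT36, was a test added after the data were seen. It was -1.24 ± 0.35 for AT4G01700 (adjusted p = 0.011) and -0.69 ± 0.35 for AT2G39210 (adjusted p = 0.17), where 26.2% of probe sets passed. AT1G13470 gave -0.54 ± 0.56 (adjusted p = 0.56) and AT5G52760 -0.84 ± 1.08 (adjusted p = 0.65). The call for AT4G01700 was lost after quantile normalization (-0.92, adjusted p = 0.09), and AT2G39210 passed without water ZT36 0h replicate 3 (-1.0, adjusted p = 0.03).

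Next, the 0 h water arrays were compared between the times of treatment. Here AT4G01700 was higher at ZT24 than at ZT36 by 1.45 ± 0.25 (2.73-fold, limma adjusted p = 6.5e-05, n = 3 per group) and AT2G39210 by 1.34 ± 0.25 (2.53-fold, adjusted p = 0.00016). This comparison called 40.9% of all probe sets and 18.7% as higher at ZT24, so a difference between the times was common. AT1G13470 differed by 0.83 ± 0.40 (adjusted p = 0.11) and AT5G52760 by 0.74 ± 0.76 (adjusted p = 0.49), and AT1G13470 passed without water ZT24 0h replicate 1 (1.24, adjusted p = 0.019). Their 95% intervals, -0.00 to 1.66 and -0.85 to 2.33, overlapped those of AT4G01700 (0.93 to 1.97) and AT2G39210 (0.82 to 1.86), and no difference between genes was tested. In SA at 0 h no gene of the 4 passed, where 24.5% of probe sets did: AT2G39210 differed by 0.65 ± 0.25 (adjusted p = 0.065), AT1G13470 by 0.29 ± 0.40 (adjusted p = 0.64), AT4G01700 by 0.21 ± 0.25 (adjusted p = 0.6) and AT5G52760 by -0.11 ± 0.76 (adjusted p = 0.94). AT2G39210 passed after quantile normalization (0.93, adjusted p = 0.017), with array weights (0.85, adjusted p = 0.0089) and without SA ZT36 0h replicate 1 (0.94, adjusted p = 0.0095).

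Between 0 h and 3 h of water at ZT24, none of the 4 genes passed. The differences were -0.09 ± 0.40 for AT1G13470, -0.87 ± 0.76 for AT5G52760, -0.57 ± 0.25 for AT4G01700 and -0.18 ± 0.25 for AT2G39210, each with an adjusted p of 1. Their unadjusted 95% intervals were -0.92 to 0.74, -2.46 to 0.72, -1.09 to -0.05 and -0.70 to 0.34, and that of AT4G01700 alone left out 0. By size they held places 18564, 22734, 22714 and 21723 from the highest. Limma called 0 of 22746 probe sets in that comparison, which is 0%, with 728 at an unadjusted p under 0.05, 5 called after quantile normalization and 7 with array weights. At ZT36, where the water 3 h arrays helped to choose the genes, the untested values were -0.53, -1.66, -0.41 and -0.58 in the same order, all downward.

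The rise with SA over water was larger at ZT36 than at ZT24 for all 4 genes, a direction that choosing them at ZT36 favours, so it is given without a test. The excess was 2.31 ± 0.35 (log2, SE) for AT2G39210, 1.71 ± 0.35 for AT4G01700, 1.44 ± 1.08 for AT5G52760 and 1.30 ± 0.56 for AT1G13470. Each excess is the sum of how far water 3 h lay lower at ZT36 and how far SA 3 h lay higher at ZT36. For AT2G39210 the water part was 1.74 and the SA part 0.57, each with an SE of 0.25. For AT4G01700 these parts were 1.29 and 0.42 (SE 0.25). For AT5G52760 they were 1.52 and -0.08 (SE 0.76), and for AT1G13470 they were 1.27 and 0.03 (SE 0.40). These SEs are shared over the 8 groups. The SDs of AT5G52760 itself, at ZT24 and ZT36, were 1.84 and 0.48 in water 3 h and 0.28 and 0.09 in SA 3 h. In each gene the larger part lay in the water arrays. The excess of AT5G52760 rested on single arrays: without water ZT24 3h replicate 2 it was 0.47, with a water part of 0.55, and without water ZT24 3h replicate 1 it was 2.30, with a water part of 2.38. The excess of AT1G13470 moved with the same arrays, to 0.91 (water part 0.88) without replicate 2 and 1.79 (water part 1.77) without replicate 1. The water 3 h arrays of ZT24 lay above those of ZT36 without overlap for 3 of the 4 genes (25.5% of all probe sets), AT5G52760 being the exception. The SA 3 h arrays lay apart between the times for AT2G39210 alone (38.8% of all probe sets, in either direction).

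With SA 0 h in place of water 3 h, the excess at ZT36 was smaller. It was 1.21 ± 0.35 (SE) for AT2G39210, 0.63 ± 0.35 for AT4G01700, 0.32 ± 0.56 for AT1G13470 and -0.19 ± 1.08 for AT5G52760. In the same order, the SA 0 h part was 0.65, 0.21, 0.29 and -0.11, and the SA 3 h part was 0.57, 0.42, 0.03 and -0.08. For AT4G01700 the SA 3 h part was thus the larger with this control. Quantile normalization took this excess to 1.53, 0.80, 0.67 and -0.04. After quantile normalization the excess over water was 1.97, 1.39, 1.40 and 1.46 for AT2G39210, AT4G01700, AT1G13470 and AT5G52760. The water part was then 1.37 for AT2G39210 and 0.87 for AT4G01700, and it was still the larger part in all 4 genes.

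**Figure D3:**
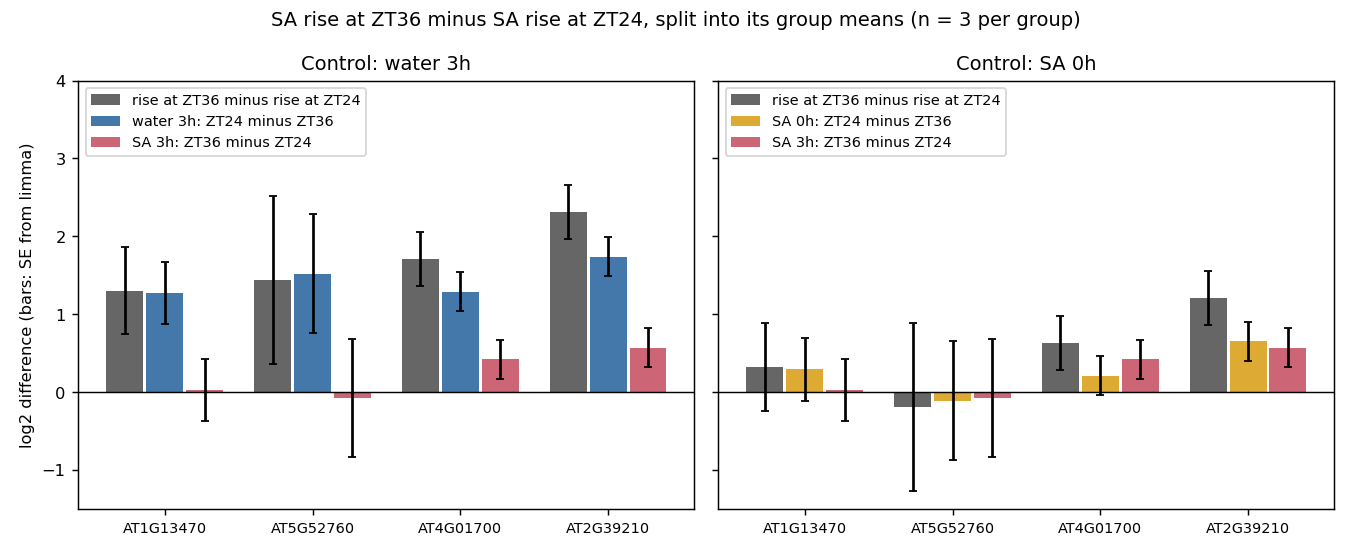
The SA rise at ZT36 minus that at ZT24 (grey) for each of the 4 genes, on a log2 scale with SE from limma (3 arrays per group), split into the control's difference between the times (blue or yellow) and that of SA 3 h (red), with water 3 h as control on the left and SA 0 h on the right. On the left the water bars, 1.27 to 1.74, exceed the SA 3 h bars, -0.08 to 0.57, in every gene, and on the right the grey bars run from -0.19 to 1.21.

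How alike the 4 genes were over the 24 arrays was then described. Likeness was measured as the root mean square of the difference between log2 values of 2 probe sets over the 24 arrays, as a description of arrays that partly chose the genes. AT4G01700 and AT2G39210 lay 0.41 apart, and no other named probe set lay closer to AT4G01700. AT1G13470 and AT5G52760 lay 0.70 apart, with 18 named probe sets closer to AT1G13470. The other 4 distances among the genes ran from 0.98 to 1.48.

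Outside the 4, the nearest named probe sets were found by the same measure, 3 for each gene. As they were picked for likeness over these same arrays, the courses they share with the genes follow from the choice. AT5G24210, a class 3 lipase family gene, was nearest to both AT2G39210 (0.45) and AT4G01700 (0.53). Its water arrays read 0.02, 0.23 and 0.44 at 0 h of ZT24 and -1.52, -0.95 and -2.07 at 0 h of ZT36, lower at ZT36, as its choice by likeness favours. AT2G23680, a cold acclimation WCOR413-like gene, was among the nearest of both as well (0.56 and 0.65). The others were AT3G28540, an AAA-type ATPase gene, for AT2G39210 (0.54) and AT4G20830, of the berberine bridge enzyme-like family, for AT4G01700 (0.64). Nearest to AT1G13470 was AT3G48080 (0.37), a close relative of the immune regulator EDS1, followed by AT3G48650 (0.49) and AT3G57700 (0.49), a protein kinase family gene. AT5G52760 had more distant neighbours: AT3G60420 (0.68), of the phosphoglycerate mutase family, AT3G47480 (0.77), which encodes an EF-hand protein, and AT5G55450 (0.78), a lipid transfer protein gene. In AT5G55450 the water arrays of ZT24 at 0 h read 0.23, 2.55 and 2.23, with replicate 1 lowest as in AT5G52760. When likeness was taken over the 8 group means, AT3G60420 stayed nearest to AT5G52760, while AT3G47480 and AT5G55450 moved to places 14 and 18.

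**Figure D4:**
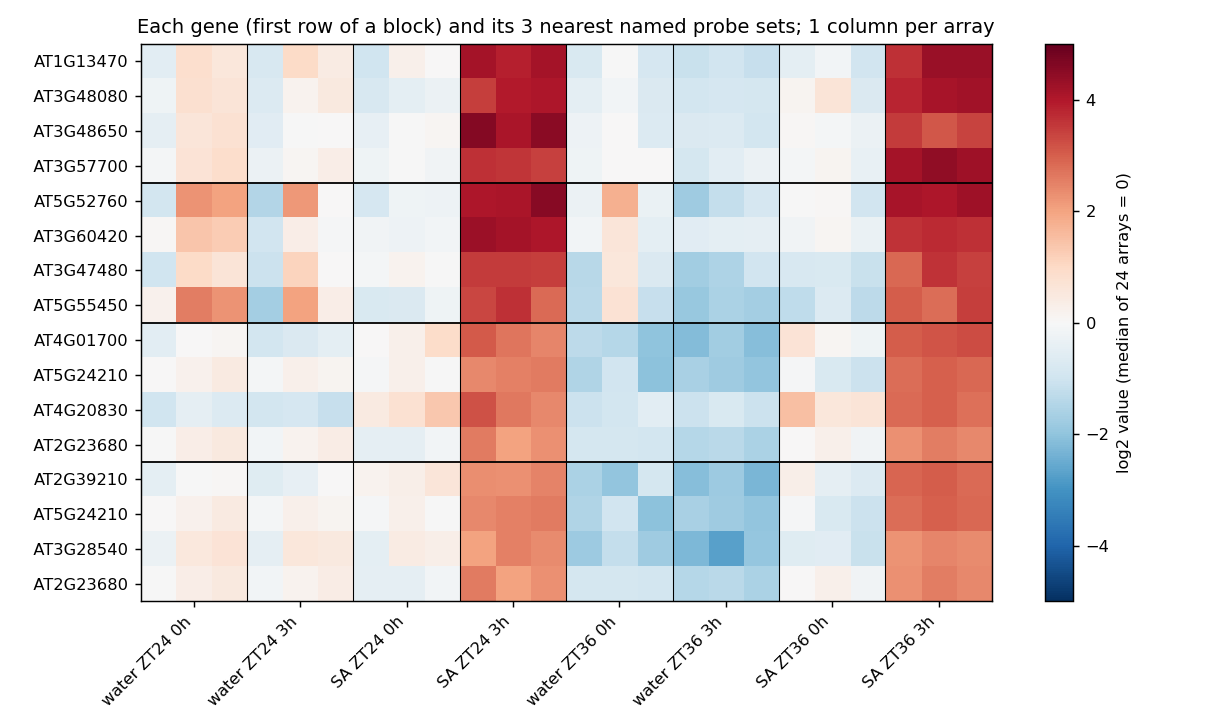
Log2 values (colour, median of the 24 arrays at 0) on each array (columns, 3 per group) of the 4 genes, each at the head of a block, and of the 3 named probe sets nearest to it over the 24 arrays. In every row the SA 3 h columns are high, and in the block of AT5G52760 replicates 2 and 3 of water at ZT24 and 0 h are above replicate 1. The nearest probe sets were picked over these same arrays, which favours such likeness.

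Relatives of the 4 genes were described from lists. Of 23 other chitinase genes listed, 14 were measured, and at ZT24 and 3 h 3 were higher and 1 lower with SA than with water. Of all probe sets, 17.7% were higher and 20.5% lower. The list, not tested as a set, was near that share for higher genes and below it for lower genes. Its median was 0.05, beside -0.026 for all probe sets. AT1G02360 rose by 4.12 ± 0.20 (limma adjusted p = 5.5e-12), from water arrays of -0.73, -0.47 and -0.82 to SA arrays of 3.93, 3.24 and 3.17. At ZT36 and 3 h its difference was 3.87, which was not tested. It was already higher with SA at 0 h, by 1.28 ± 0.20 at ZT24 (adjusted p = 0.00017) and 0.99 ± 0.20 at ZT36 (adjusted p = 0.00075). AT3G47540 rose by 1.38 ± 0.15 (adjusted p = 2.6e-07) and ChiC (AT4G19810) by 0.92 ± 0.23 (adjusted p = 0.0027), while ChiC differed by -0.25 ± 0.23 from SA 0 h (adjusted p = 0.47). AT4G19820 fell by 0.76 on the log2 scale (adjusted p = 0.0047). CHI (AT2G43570) gave 0.83 ± 0.99 (adjusted p = 0.58), with water 3 h arrays of -0.54, 3.75 and -0.20, and AT2G43620 gave 1.26 ± 0.62 (adjusted p = 0.12). AT2G43590 (0.19) and AT1G56680 (-0.17) did not pass either. Against SA 0 h, 2 chitinase genes were higher and 1 lower (14.3% and 17.4% of all probe sets), the last being AT4G19820 (-0.57, adjusted p = 0.039). That call was lost with array weights and in a fit of the arrays compared alone (adjusted p = 0.17 in each). It was also lost when replicate 1 or 2 of SA ZT24 0h or of SA ZT24 3h was left out (adjusted p of 0.06 to 0.25). AT2G43620 gave -1.59 ± 0.62 there (adjusted p = 0.055), and passed after quantile normalization (-2.26, adjusted p = 0.0035), with array weights (-1.95, adjusted p = 0.037) and under 4 other alternatives (adjusted p of 0.013 to 0.048).

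Of 9 genes listed from the heavy-metal-associated cluster around AT5G52760, 8 were measured. One and the same gene passed at ZT24 and 3 h against water (38.1% of all probe sets) and against SA 0 h (31.7%), and the list median against water was 0.09. That gene, AT5G52750, lies directly before AT5G52760 in the order of protein-coding genes on the TAIR10.1 assembly. It rose by 3.32 ± 0.39 against water (limma adjusted p = 5.2e-07), from -1.21, -0.15 and -0.01 to 2.67, 2.82 and 3.11. Its difference at ZT36 was 4.2. AT5G52770, directly after AT5G52760, gave 0.11 ± 0.07 (adjusted p = 0.25), AT5G52710 gave 0.15 and AT5G52720 gave 0.13. Probe sets of closely related neighbours may share signal. Of 8 DUF1262 neighbours of AT1G13470, 1 was measured: AT1G13540 gave 0.12 ± 0.06 (adjusted p = 0.12).

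Among the nodulin-like transporter genes, 9 of 15 listed were measured, and 2 were higher and 4 lower with SA at ZT24 and 3 h (17.7% and 20.5% of all probe sets), with a median of -0.11. AT2G16660 rose by 2.08 ± 0.62 (limma adjusted p = 0.01), and did not pass once SA ZT24 3h replicate 1 was left out (1.65, adjusted p = 0.07). AT1G18940 rose by 0.62 ± 0.12 (adjusted p = 0.00033), which did not pass after quantile normalization (0.36, adjusted p = 0.065). AT4G19450 fell by 1.07 on the log2 scale (adjusted p = 1.5e-07), and AT5G14120 gave 0.69 ± 0.27 (adjusted p = 0.052), which passed in 5 alternatives (adjusted p of 0.02 to 0.042). Against SA 0 h, 2 were higher and 2 lower (14.3% and 17.4% of all probe sets). There AT2G16660 (1.86, adjusted p = 0.025) lost its call without SA ZT24 0h replicate 1 (0.093), SA ZT24 3h replicate 1 (0.14) or SA ZT24 3h replicate 2 (0.059), and AT4G19450 (-0.38, adjusted p = 0.012) without replicate 2 of SA ZT24 0h (0.054) or of SA ZT24 3h (0.055). Quantile normalization also took both out of the calls, to 1.29 (adjusted p = 0.06) for AT2G16660 and -0.20 (adjusted p = 0.17) for AT4G19450.

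Genes of SA signalling and response were the list most like the 4 in direction, although they were listed for their known link to SA and with earlier results of these data known, so their direction is not independent evidence. Of 46 listed, 8 were measured, and 6 were higher and 0 lower with SA at ZT24 and 3 h, against water and against SA 0 h. Of all probe sets, 17.7% and 14.3% were higher in these comparisons. The medians were 2.74 and 3.04. UGT76B1 (AT3G11340), which glycosylates SA and isoleucic acid, rose by 8.18 ± 0.13 against water (limma adjusted p = 4.1e-20). GRX480 (AT1G28480), a glutaredoxin that binds TGA factors, rose by 3.63 ± 0.13, and WRKY53 (AT4G23810), a senescence and defence transcription factor, rose by 3.39 ± 0.29. AT5G52810 (SARD4), which acts in pipecolic acid synthesis, rose by 2.75 ± 0.23, and AT5G03350, a lectin-like gene, by 2.72 ± 0.38. SAG101 (AT5G14930), a partner of EDS1, rose by 0.99 ± 0.16. BSMT1 (AT3G11480), an SA methyltransferase, gave -0.30 ± 0.46 (adjusted p = 0.68), and UGT74F1 (AT2G43840), an SA glucosyltransferase, gave 0.21 ± 0.10 (adjusted p = 0.13). The rises of the 4 genes at that time, 2.69 to 3.98, thus lay within the range of the called SA genes, 0.99 to 8.18.

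**Figure D5:**
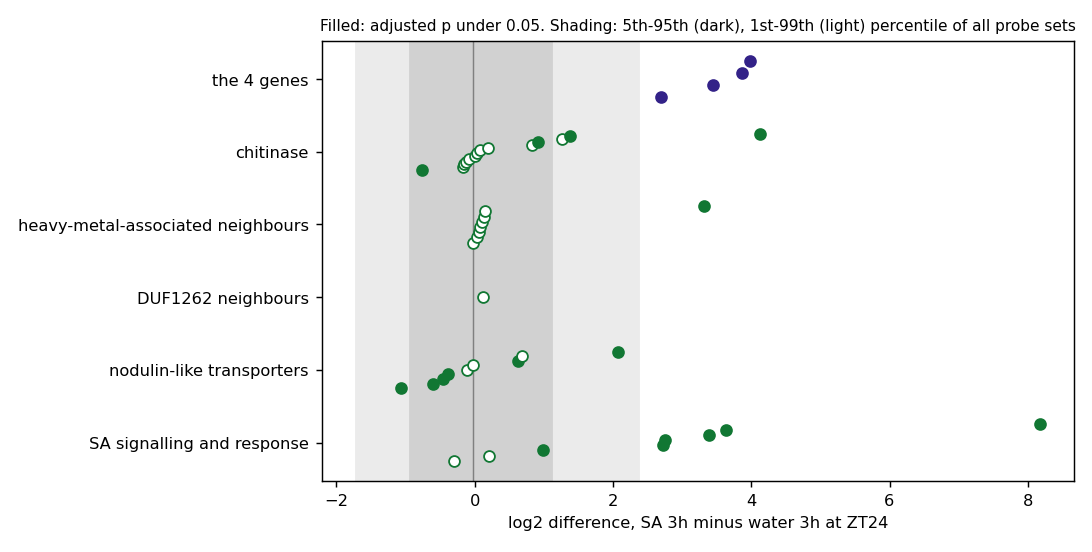
Log2 difference between SA 3 h and water 3 h at ZT24 (horizontal axis) of the 4 genes and of each measured member of 5 gene lists (rows), 1 point per probe set, filled where the adjusted p was under 0.05, with shading for percentiles of all probe sets. The 4 genes lie at 2.69 to 3.98, right of the shading, as do AT1G02360 among the chitinases, AT5G52750 among the heavy-metal-associated neighbours and 5 genes of the SA list.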

How the data were processed

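The authors deposited log2 values of 22810 probe sets on 24 arrays, made with RMA per the submitters' processing notes, with no version given. The values do not state a log base, and base 2 is that of RMA. Each probe set is centred on its median over the arrays (largest absolute median 5e-07). After 64 control probe sets were left out, limma 3.58.1 in R 4.3.3 was fitted to the 24 arrays jointly, 1 mean for each group (16 residual and 4.03 prior degrees of freedom). P-values were 2-sided and adjusted by Benjamini-Hochberg over 22746 probe sets, with a threshold of 0.05. Comparisons that share arrays with SA against water at ZT36 and 3 h were not tested. Figures were made in Python 3.11.15 with matplotlib 3.10.9.

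The platform table gave 1 gene to 13513 probe sets, several to 503 and none to 8730. A RefSeq table of TAIR10.1 matched 13436 by gene identifier. It served for the locus names that linked genes to probe sets, for gene symbols and for gene order. Named genes were the 4, their 3 nearest probe sets each, and up to 8 (chitinase, SA) or 4 (other lists) listed genes by size of difference at ZT24. A family match by product name was planned and was not made. Members and lists were chosen with earlier results of these data known. The fit was tested on simulated data. The alternatives were another normalization, prior, array weights, probe set filters, a fold threshold, a replicate block and each array left out.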

Additional observations from a re-analysis of the deposited data

Results flagged for a closer look

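Counted here were the 4 genes and the named genes of the lists, and not the nearest probe sets. For 6 of them, the difference between SA 0 h and water 0 h was not the same at both times of treatment. The test was limma's test of the difference itself with adjustment over all probe sets, of which 26.2% passed. Only 1 of the 6 is among the 4 genes described: AT4G01700 stood 0.54 higher in SA at ZT24 and 1.78 at ZT36, a difference of -1.24 ± 0.35 (adjusted p = 0.011), lost after quantile normalization (-0.92, adjusted p = 0.09). AT5G03350 gave -1.51 at ZT24 and 1.20 at ZT36, a difference of -2.71 ± 0.53 (adjusted p = 0.00065). Its ZT36 value was 0.49 (adjusted p = 0.44) after quantile normalization, 0.75 (0.14) with array weights, 0.80 (0.13) without water ZT36 0h replicate 1, 0.81 (0.14) without SA ZT36 0h replicate 2 and 1.14 (0.064) without SA ZT36 0h replicate 1, and its ZT24 value was -1.29 (0.051) without water ZT24 0h replicate 2. AT5G52810 gave -1.05 and 0.56, a difference of -1.62 ± 0.33 (adjusted p = 0.00092), and AT5G52810 gave 0.75 at ZT36 (0.031) without SA ZT36 0h replicate 3. AT4G19450 gave -0.78 and 0.71, a difference of -1.49 ± 0.16 (adjusted p = 8.5e-07). In the other direction, AT5G14120 gave 0.49 and -1.47, a difference of 1.96 ± 0.39 (adjusted p = 0.00068). ChiC (AT4G19810) gave 1.38 and 0.37, a difference of 1.00 ± 0.33 (adjusted p = 0.026), which no longer passed without water ZT24 0h replicate 2 or 3, SA ZT24 0h replicate 3, water ZT36 0h replicate 3, or SA ZT36 0h replicate 2 or 3 (adjusted p of 0.051 to 0.09).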

How the results depend on the processing

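The 8 calls of the 4 genes for SA 3 h at ZT24 were kept under every alternative run. The called 0 h differences of AT4G01700 and AT2G39210, SA against water at ZT36 and ZT24 against ZT36 in water, were also kept. Leaving out 1 array gave, against water 3 h, 3.37 to 4.26 for AT1G13470, 3.12 to 4.95 for AT5G52760, 3.28 to 3.58 for AT4G01700 and 2.55 to 2.87 for AT2G39210. It gave -2.56 to -0.99 for AT5G52760 in SA against water at 0 h of ZT24, 0.55 to 1.24 for AT1G13470 in ZT24 against ZT36 of water 0 h, 0.44 to 0.94 for AT2G39210 in that of SA 0 h, and -1.0 to -0.40 for the change of the SA 0 h difference of AT2G39210 between the times. AT2G43590, not called for SA 3 h against SA 0 h at ZT24 (-0.46), ran from -0.80 to 0.24, the latter without SA ZT24 0h replicate 3 (adjusted p = 0.029). Listed genes that gained a call for SA 3 h against water 3 h at ZT24 were AT5G14120 (0.83, adjusted p = 0.042) and AT1G56680 (-0.22, 0.032) without SA ZT24 3h replicate 1, AT5G14120 also in a fit of the arrays compared alone (0.02), with array weights (0.04), without the 25% of probe sets of lowest SD (0.039) and with the replicate block (0.034), AT1G13540 (0.17, 0.038) without SA ZT24 3h replicate 2, and AT2G43620 (1.26, 0.00028) in a fit of the arrays compared alone.

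Quantile normalization gives every array the same distribution, which narrows the SA 3 h arrays and widens the SA 0 h arrays by construction. It took the ZT24 rises over SA 0 h to 3.18 for AT1G13470 and 3.62 for AT5G52760. It took the change of the SA 0 h difference of AT4G01700 between the times to -0.92 (adjusted p = 0.09), ZT24 against ZT36 in SA 0 h of AT2G39210 to 0.93 (0.017), and water 3 h against 0 h to 5 called probe sets. Array weights gave 7 there, 0.68 (adjusted p = 0.035) for AT4G01700 in SA against water at 0 h of ZT24 and 0.85 (0.0089) for AT2G39210 in ZT24 against ZT36 of SA 0 h. The order of comparisons for the next counts is SA 3 h at ZT24 against water and against SA 0 h, SA 0 h against water 0 h at ZT24 and ZT36, ZT24 against ZT36 in water 0 h and SA 0 h, and the change of the SA 0 h difference between the times. All probe sets gave 8677, 7211, 3688, 6603, 9311, 5563 and 5949 calls. With 1 probe set per gene the counts were 4641, 3857, 2016, 3544, 4989, 2950 and 3195, from fewer tests. With an absolute log2 difference of at least 1 as well they were 2314, 1746, 494, 1011, 2347, 829 and 1898.

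The labels give no replicate numbers. A replicate block on runs of title numbers called AT1G13470 in ZT24 against ZT36 of water 0 h (0.83, adjusted p = 0.032) and changed no other call of the 4 genes. Arrays of the same run deviated together at a mean r of 0.05 (-0.36 to 0.45), beside -0.03 between runs, and 15 of 24 arrays had their closest array of another group in their own run. Whether 15 of 24 is more than unlinked arrays would give was not tested. The run 1 array was the lowest in 4 of 8 groups for AT1G13470, in 5 for AT5G52760 and AT4G01700, and in 3 for AT2G39210. The labels do not link the runs, so they are not taken as pairs. The limits are 3 arrays per group, centred values that hold no signal over background, and lists of which many genes had no named probe set.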
